A study of Mus musculus with 4 samples.

Results

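The genes described here make, carry, sense and remove retinoic acid, or are named for their response to it. They are 9 of the 41029 genes in the expression table of cultured mesenchymal stem/progenitor cells from mouse bone marrow: Rarres1, Rarres2, Aldh1a1, Aldh1a2, Aldh1a3, Rarb, Crabp1, Crabp2 and Cyp26b1, each matched to its row by Ensembl gene identifier. The 9 were picked by name with the differences between these libraries already known, so their values are a description and no test of them is offered as support.

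The 4 RNA-seq libraries came from C57BL/6 cells grown in MesenCult basal medium with 20% of its supplement and replated near confluence. The labels give 2 libraries as Tet2-/-, here knockout 1 and knockout 2, and 2 as wild type. They name neither the age of the mice nor the allele of Tet2 (the enzyme gene whose product oxidises methylated cytosine in DNA), and they do not say that replicates came from separate animals, so every spread below is that between these samples and may be technical. Values are in FPKM, the reads of a gene per kilobase of its length, relative to all reads over genes in that library. The totals of reads, worked out from the FPKM values, were 15847340 (knockout 1), 21337246 (knockout 2), 10096878 (wild type 1) and 17778152 (wild type 2).

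The targeted gene did not set the libraries apart in the direction of its label. In knockout 1 and 2, Tet2 reached 11.6 and 9.70 FPKM, and wild type had 7.01 and 8.39 (log2 difference 0.42, SE 0.18, adjusted p = 0.329, limma). A total over a gene cannot show a missing exon, so each library keeps the name its label gives. Markers of marrow stroma were present, with at least 9 of 10 at 1 FPKM or more in every library, but their levels differed. The 2-fold counts of markers here are on the log2(FPKM + 1) scale, which shrinks differences of low values. In knockout 1 and likewise in knockout 2, 3 of the 10 exceeded each wild-type library by 2-fold or more and 2 were lower by as much. Cxcl12 was lower in both, at 43.4 and 46.6 FPKM beside 291 and 298 in wild type. Markers of endothelium summed to at most 0.864 FPKM, whereas macrophage markers summed to between 65.5 and 109 FPKM. Epithelial markers summed to 1.66 FPKM in knockout 2, of which Cdh1 made up 1.47, and to at most 0.305 elsewhere. The epithelial marker Epcam was listed at 0 in all 4. Mesothelial markers, mainly Krt19 except in knockout 2, summed to 31.4 FPKM in knockout 1, 0.868 in knockout 2, and 10.5 and 11.1 in wild type, with Upk1b and Lrrn4 listed at 0 throughout. Adipocyte markers summed to 21.4 FPKM in knockout 2 and to at most 4.92 elsewhere, nearly all of it Fabp4, while Adipoq, Plin1, Cidec and Lep stayed at or below 0.218 FPKM in every library. Osteoblast markers did not behave alike in the knockout-labelled libraries. In knockout 2, 5 of the 6 exceeded each wild-type library by 2-fold or more on that scale. In knockout 1, 1 did and 2 were lower by as much. Dmp1 in knockout 1, at 0.205 FPKM beside 0.0717 and 0.0814 in wild type, is not counted on that scale. Without the widely expressed Spp1, the other 5 summed to 1223 FPKM in knockout 2 and to 10.8, 17.8 and 17.6 FPKM in knockout 1, wild type 1 and wild type 2. In a bulk culture, fewer cells of a type and less RNA per cell cannot be told apart.

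Retinol enters a cell, is oxidised to retinaldehyde by alcohol and retinol dehydrogenases, and is then oxidised irreversibly to retinoic acid by the retinaldehyde dehydrogenases that Aldh1a1, Aldh1a2 and Aldh1a3 encode. Small binding proteins, CRABP1 and CRABP2, carry the acid in the cytosol, nuclear retinoic acid receptors bind it and switch genes on or off as partners of retinoid X receptors, and CYP26 enzymes degrade it. In the skeleton retinoic acid restrains or promotes bone formation according to dose and stage, and CYP26B1 limits its level around developing bone.

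The start regions of these genes differ widely in the sequence features that a methylcytosine oxidase and a retinoic acid receptor would meet, and 4 of them are shown for that reason. RefSeq start sites (GRCm38.p6) were found for 6 of the 9 genes, in 7 windows of the 250 bases just before the start site. Rarb is the textbook target of its own receptor, and its window is printed with a direct repeat in capitals. The repeat is a pair of half-sites spaced as receptor dimers bind them, and was searched on both strands as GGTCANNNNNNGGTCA, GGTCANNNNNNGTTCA, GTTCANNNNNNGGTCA and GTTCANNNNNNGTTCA. The same search found a match before Cyp26a1, another CYP26 gene, of which 36 bases are shown with the match in capitals.
Rarb, chr14:16575477-16575726, minus strand: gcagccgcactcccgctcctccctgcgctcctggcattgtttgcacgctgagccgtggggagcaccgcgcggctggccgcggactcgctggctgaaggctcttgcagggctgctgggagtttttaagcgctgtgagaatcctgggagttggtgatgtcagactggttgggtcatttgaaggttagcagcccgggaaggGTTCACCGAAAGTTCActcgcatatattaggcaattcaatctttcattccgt
Cyp26a1, chr19:37697766-37697801, plus strand: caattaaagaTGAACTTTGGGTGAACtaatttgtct
The match in Rarb, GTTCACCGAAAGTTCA, ends 36 bases before the start site, which lies inside the gene's GENCODE span, and that in Cyp26a1 reads GTTCACCCAAAGTTCA on the opposite strand and ends 16 bases before it. Of 32841 windows of this length, 69 held such a match (0.21%), and none of the windows of Rarres1, Aldh1a1, Aldh1a2, Crabp1 and Cyp26b1 did. This says only that these letters are not in those windows.

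CpG dinucleotides, the sites where DNA methylation is laid down and removed in mammals, are in capitals in the next windows.
Aldh1a2, chr9:71215539-71215788, plus strand: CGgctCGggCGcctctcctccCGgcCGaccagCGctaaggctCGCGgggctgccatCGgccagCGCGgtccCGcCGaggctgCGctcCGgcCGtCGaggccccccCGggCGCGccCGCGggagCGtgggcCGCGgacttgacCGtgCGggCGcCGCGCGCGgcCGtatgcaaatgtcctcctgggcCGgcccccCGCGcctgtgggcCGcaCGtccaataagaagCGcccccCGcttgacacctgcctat
Aldh1a1, chr19:20492333-20492582, plus strand: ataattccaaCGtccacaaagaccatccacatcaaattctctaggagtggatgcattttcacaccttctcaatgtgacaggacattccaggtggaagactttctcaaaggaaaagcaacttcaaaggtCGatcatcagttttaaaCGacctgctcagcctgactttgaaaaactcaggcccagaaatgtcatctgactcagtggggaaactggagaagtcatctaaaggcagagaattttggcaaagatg
Rarres1, chr3:67515524-67515773, minus strand: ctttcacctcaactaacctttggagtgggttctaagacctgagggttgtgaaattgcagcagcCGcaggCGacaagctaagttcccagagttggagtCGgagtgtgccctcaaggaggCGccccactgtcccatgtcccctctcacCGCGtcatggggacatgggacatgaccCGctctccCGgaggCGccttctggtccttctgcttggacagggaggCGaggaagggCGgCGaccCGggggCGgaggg
The Aldh1a2 window held 40 CpG, more than 98.7% of all windows, which had a median of 6. The upstream start of Aldh1a1 shown here had 3 and the downstream start, with its window at chr19:20601718-20601967, had 1. Which start of Aldh1a1 was in use in these cells was not tested. Rarres1 had 14, Rarb 16, Crabp1 12 and Cyp26b1 7. Methylation was not measured in these libraries, so the counts describe the sequence only.

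In wild-type cells the carriers had the highest levels on the FPKM scale, which is per length. Crabp2 stood at 196 FPKM in both libraries and Crabp1 at 37.0 and 32.5 FPKM. The next level was far lower, with Cyp26b1 at 1.72 and 1.68 FPKM, then Rarb at 1.40 and 1.33 and Aldh1a1 at 1.21 and 1.40, and the last pair overlap. Under 0.5 FPKM came Rarres2 (0.367 and 0.470), Aldh1a3 (0.403 and 0.229) and Rarres1 (0.224 and 0.297), where Aldh1a3 overlaps each of the other two, and Aldh1a2 was lowest at 0 and 0.174. The order was another one in the libraries labelled knockout. Crabp2 still led, but Rarres1 came next in knockout 1, and Cyp26b1, Crabp1 and Rarres1 followed in that order in knockout 2.

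**Figure D1:**
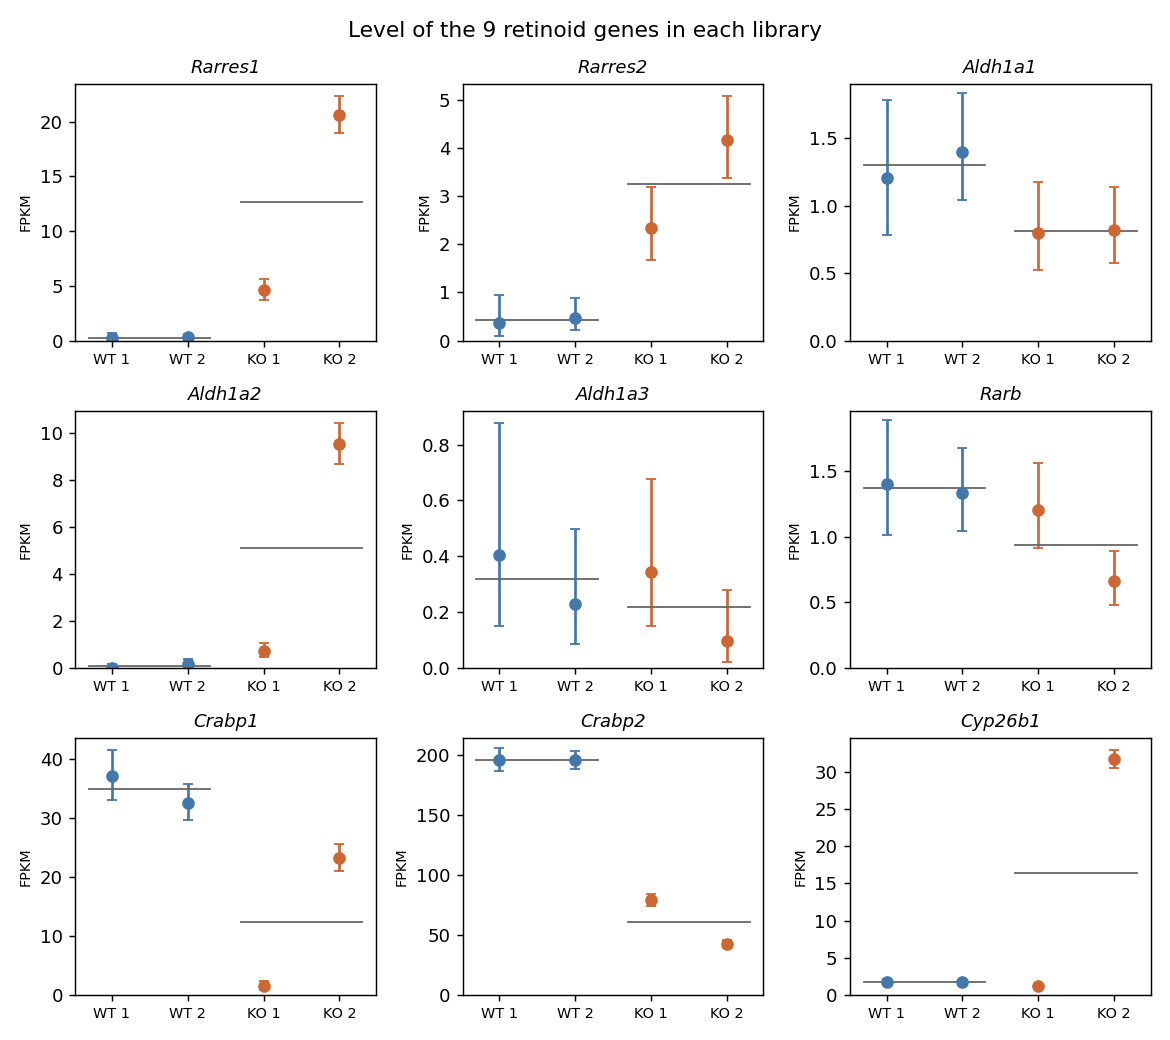
FPKM (y axis, from 0, a scale per gene) of the 9 retinoid genes in wild type 1 and 2 (blue) and knockout 1 and 2 (orange); bars are exact 95% Poisson intervals of the reads, and grey lines are group means of 2 libraries. In both orange points Rarres1, Rarres2 and Aldh1a2 lie above the blue ones, Crabp1, Crabp2, Aldh1a1 and Rarb lie below them, and Cyp26b1 and Aldh1a3 overlap.

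The genes named for their response to retinoic acid stood higher in both libraries labelled knockout. Rarres1 (retinoic acid receptor responder 1, also called TIG1) encodes a membrane protein first found as a gene that a synthetic retinoid induced in human skin cells. It lies on chromosome 3 from 67478972 to 67515523 (minus strand, GRCm38). The level of Rarres1 was 4.62 FPKM in knockout 1, 20.6 in knockout 2, and 0.224 and 0.297 in wild type 1 and 2, from 97, 583, 3 and 7 reads. Both knockout-labelled libraries were far above both wild-type libraries, and knockout 2 was 4.46-fold above knockout 1. The group means differed 48.4-fold (12.6 ± 11.3 against 0.261 ± 0.0516 FPKM, mean ± SD, n = 2 each). Since wild type holds 10 reads in all, the ratio of reads per library total, 51.0, has an exact 95% interval from 27.5 to 107, which covers counting error only.

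Rarres2 encodes chemerin, a secreted attractant of leukocytes and a signal of fat tissue. The gene is on chromosome 6 from 48569696 to 48572789 (minus strand). Knockout 1 and 2 had 2.34 and 4.17 FPKM and wild type 0.367 and 0.470, from 40, 96, 4 and 9 reads. The groups did not overlap, the means differed 7.78-fold, and the knockout-labelled libraries lay closer to each other than for Rarres1. The ratio of reads was 7.84, with an exact 95% interval from 4.44 to 15.1. Lrrc61, on the opposite strand, overlaps the gene and stood at 2.59 and 2.73 FPKM beside 3.66 and 2.86, and whether the counting used strand is not given in the sources used here.

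Of the chemerin receptor genes only Cmklr1, which encodes the signalling receptor, was high enough to be tested, and it differed between the libraries labelled knockout. It had 22.2 FPKM in knockout 2, 0.971 in knockout 1, and 6.43 and 6.44 in the wild-type pair (log2 difference -0.14, SE 1.27, adjusted p = 0.963, limma). Knockout 2 was above and knockout 1 below both wild-type libraries. Without knockout 1 the sign of this difference turned (log2 1.64). Lxn, which encodes the carboxypeptidase inhibitor latexin, a relative of the Rarres1 protein, stood at 26.9 and 50.05 FPKM beside 22.4 and 25.5 (adjusted p = 0.420, limma).

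Among the enzymes that make retinoic acid, Aldh1a2 stood higher and Aldh1a1 lower in both libraries labelled knockout. Aldh1a2, the main retinaldehyde dehydrogenase gene of the early embryo, is on chromosome 9 from 71215789 to 71296243 (plus strand). Its level was 0.725 FPKM in knockout 1 and 9.50 in knockout 2, whereas wild type 1 and 2 had 0 and 0.174, from 26, 459, 0 and 7 reads. Knockout 1 lay above wild type by a small level and knockout 2 by a large one, 13.1-fold above knockout 1. In wild type 1 a count of 0 allows up to 0.131 FPKM at 3 reads, and the two-sided 95% interval drawn in the plot of levels reaches 0.161. Against the 7 wild-type reads the ratio of reads was 51.9, with an exact 95% interval from 25.02 to 130 that covers counting error only, and it was 6.53 for knockout 1 alone (2.76 to 17.8).

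Aldh1a1 stood on the lower side by a small amount. This gene, whose product also clears other aldehydes, is on chromosome 19 from 20492715 to 20643465 (plus strand). Knockout 1 and 2 had 0.799 and 0.822 FPKM and wild type 1.21 and 1.40, from 26, 36, 25 and 51 reads. The knockout-labelled values agree closely and lie below both wild-type ones, by 1.61-fold in the means, and the ratio of reads was 0.612 (exact 95% interval 0.430 to 0.867), although the counting intervals of the single libraries overlap. Aldh1a3 (chromosome 7, 66390890 to 66427517, minus strand) rests on 8, 3, 6 and 6 reads, at 0.343 and 0.0955 FPKM beside 0.403 and 0.229, and a difference was not detectable at this depth.

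As shares of the summed FPKM of the 3 enzymes, Aldh1a2 made up 38.8% in knockout 1 and 91.2% in knockout 2, against 0% and 9.66% in wild type 1 and 2. Aldh1a1 made up 42.8% and 7.89% against 74.9% and 77.6%. The sum itself was alike in knockout 1 and wild type (1.87 FPKM beside 1.61 and 1.80) and reached 10.4 FPKM in knockout 2. Aldh1a7, a mouse copy of Aldh1a1, stood at 0.977 and 3.31 FPKM beside 0.240 and 0.245 (adjusted p = 0.293, limma). Of the 50-base windows of the longest Aldh1a1 transcript, 6.54% are identical in Aldh1a7. A read that lies wholly inside such a window could come from either gene, while a longer read might still be placed. Aldh1a2 and Aldh1a3 share no such window with Aldh1a1.

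**Figure D2:**
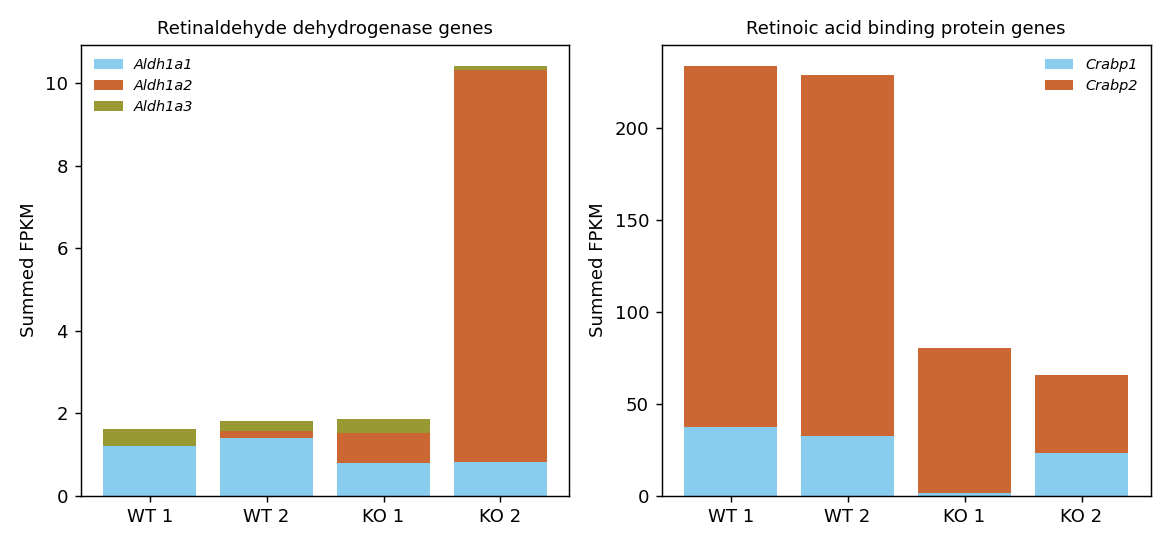
Summed FPKM (y axis, from 0) of the retinaldehyde dehydrogenase genes (left) and of the cellular retinoic acid binding protein genes (right) in each library, with 1 bar per library split by gene. Aldh1a2 fills 91.2% of the left bar in knockout 2, and both bars of the knockout-labelled libraries on the right are lower than those of wild type.

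The carriers stood lower in both libraries labelled knockout. Crabp2 encodes the binding protein that hands retinoic acid to its receptors in the nucleus, and lies on chromosome 3 from 87948666 to 87953376 (plus strand). Knockout 1 and 2 had 78.9 and 42.3 FPKM and each wild-type library 196, from 994, 717, 1576 and 2773 reads. The groups did not overlap and the means differed 3.24-fold (60.6 ± 25.9 against 196 ± 0.0977 FPKM, n = 2 each). Each library labelled knockout was lower, by 2.49-fold and 4.64-fold against the wild-type mean.

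Crabp1, whose product is thought to hold retinoic acid in the cytosol and pass it to degrading enzymes, is on chromosome 9 from 54764748 to 54773110 (plus strand). The values were 1.49 FPKM in knockout 1, 23.1 in knockout 2, and 37.0 and 32.5 in wild type 1 and 2, from 19, 396, 300 and 464 reads. Here knockout 1 was the low library, 23.3-fold below the wild-type mean, while knockout 2, at 23.1 FPKM, came much closer to it. The sum of the pair was 80.4 and 65.4 FPKM in the knockout-labelled libraries against 233 and 229. Crabp1 made up 1.86% of it in knockout 1 and 35.4% in knockout 2, with 15.9% and 14.2% for wild type, and the longest transcripts of the pair share no 50-base window. Fabp5, which encodes a fatty acid carrier that can also bring retinoic acid to the nuclear receptor PPAR delta, had 51.6 FPKM in knockout 2 and 21.9 in knockout 1, with 22.5 and 22.0 for wild type (adjusted p = 0.535, limma).

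Cyp26b1, which encodes the retinoic acid hydroxylase that protects skeletal and germ cells from excess acid, was high in knockout 2 alone. The gene lies on chromosome 6 from 84571414 to 84593908 (minus strand). It had 31.7 FPKM there, 1.18 in knockout 1, and 1.72 and 1.68 in wild type, from 2496, 69, 64 and 110 reads. Knockout 2 was 18.7-fold above the wild-type mean and knockout 1 was 1.44-fold below it, so the groups overlap, and without knockout 2 the log2 difference of 1.65 became -0.31. Cyp26a1, chosen with its values known, was too low to be tested, at 0.952 FPKM (36 reads) in knockout 2, 0.107 in knockout 1, and 0.168 and 0.349 in wild type.

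Knockout 2, where Cyp26b1, Aldh1a2 and Rarres1 were highest, is the library in which the osteoblast markers Alpl, Ibsp, Sp7, Bglap and Dmp1 were highest too. In knockout 1 those 5 markers summed to 10.8 FPKM, beside 17.8 and 17.6 FPKM in wild type 1 and 2. Spp1, the other osteoblast marker, was highest in knockout 1 (3871 FPKM, beside 2528 in knockout 2 and 1775 and 1918 in wild type). Rarres1, Rarres2 and Aldh1a2 were above both wild-type libraries in knockout 1 too, Aldh1a2 at 0.725 FPKM beside 9.50 in knockout 2. The part of these markers in the retinoid values was not tested.

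Rarb encodes retinoic acid receptor beta and carries the direct repeat printed above in front of its start. The gene is on chromosome 14 from 16430839 to 16819156 (minus strand). Its level was 1.21 FPKM in knockout 1 and 0.664 in knockout 2, whereas wild type 1 and 2 had 1.40 and 1.33, from 58, 43, 43 and 72 reads. Both knockout-labelled values were below both wild-type ones, by 1.14-fold and 2.06-fold against the wild-type mean. For knockout 1 the ratio of reads, 0.887, has an exact 95% interval from 0.636 to 1.23, so a difference was not detectable there at this depth. For knockout 2 the ratio was 0.488 (0.336 to 0.699). Both intervals cover counting error only and not the spread between libraries. Over all 4 libraries the log2 difference was -0.31 (SE 0.25, adjusted p = 0.557, limma). The gene overlaps the much more abundant Top2b on the opposite strand, at 186 and 191 FPKM beside 168 and 180. Rarb made up at most 0.911% of the summed FPKM of the 3 retinoic acid receptor genes in any library, and Rarg between 86.0% and 91.0%.

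Read across the 9 genes, 3 had both knockout-labelled values above the wild-type pair, 4 had them below, and Cyp26b1 and Aldh1a3 overlapped. Over all 12344 genes tested, 54.2% lay outside in this way (29.4% higher and 24.8% lower). By the stricter count of genes at least 2-fold apart in every pair of libraries on the log2(FPKM + 1) scale, the higher side held Rarres1 and Rarres2, where 0.794% of all genes did so, and the lower side held Crabp2, where 1.13% did. Neither share is read as a result, since the genes were chosen on this contrast. Of the 9, 8 had a mean of at least 1 FPKM and entered the fit, and Rarres1, Rarres2 and Aldh1a2 did so only through the knockout-labelled libraries. The median log2 difference of these 8 was 0.62, beside 0.03 over all genes. It is likewise not read as a result, since the genes were chosen on this contrast. It falls in the gap between Rarb (-0.31) and Rarres2 (1.55), and no member had a value near it.

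In the limma fit across the whole table none of the 8 passed an adjusted p of 0.05, where 2 of all genes did (0.0162%, with 0.0081% higher and 0.0081% lower). Their adjusted p ran from 0.216 (Crabp2 and Rarres2) to 0.569 (Cyp26b1), with 3 of the 8 at an unadjusted p under 0.05 (Rarres1 and Rarres2 higher, Crabp2 lower), where 17.1% of all genes had one (8.84% higher and 8.29% lower), and limma-voom on whole reads called none. The log2 differences were 3.13 for Rarres1 (SE 0.71), 1.55 for Rarres2 (SE 0.30) and -1.75 for Crabp2 (SE 0.33). The smallest p that an exact permutation of these 4 libraries allows for a gene is 0.333.

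**Figure D3:**
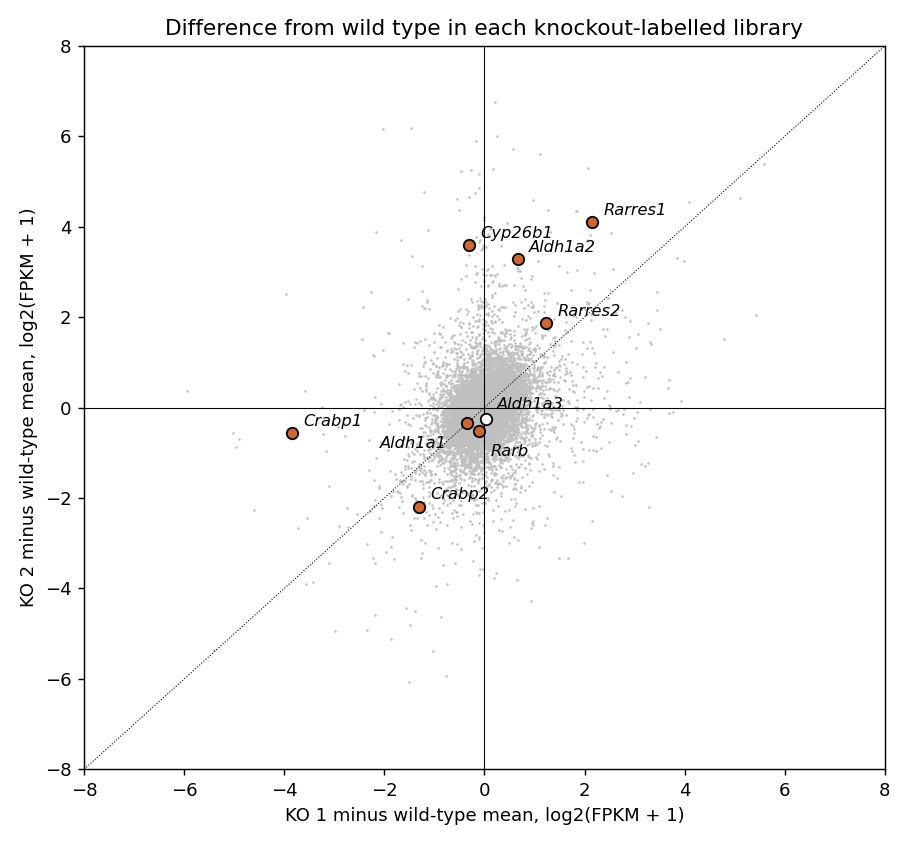
Difference from the wild-type mean on the log2(FPKM + 1) scale in knockout 1 (x axis) and knockout 2 (y axis); grey points are the 12344 tested genes, orange points 8 of the retinoid genes, and the open point Aldh1a3, which was not tested. Rarres1 (2.16 and 4.10) and Rarres2 (1.24 and 1.87) are on the higher side of both axes and Crabp2 (-1.304 and -2.19) on the lower side, each farther out in knockout 2, while Crabp1 (-3.84 and -0.57) lies near the x axis and Cyp26b1 near the y axis.

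The genes whose differences from the wild-type mean were most like those of a retinoid gene were sought among 12343 others, by Euclidean distance of those differences on the log2(FPKM + 1) scale over the 4 libraries. The pseudocount shrinks the differences of low genes, so likeness on this scale is not likeness of fold. For Rarres1 these were Gprc5c, an orphan receptor gene, at 9.41 and 33.2 FPKM beside 1.47 and 1.37 (distance 0.30), and Sorbs2, an adaptor protein gene of the actin cytoskeleton (0.39). For Aldh1a2 the nearest was Slco1a5, an organic anion transporter gene, at 2.49 and 19.1 FPKM beside 1.07 and 1.296 (0.09). Ltbp2, a matrix protein gene, was nearest to Crabp1 at 9.71 and 65.4 FPKM beside 103 and 94.5 (0.62), and Itga10, an integrin gene of cartilage, to Cyp26b1 at 2.34 and 44.5 FPKM beside 2.76 and 2.44 (0.22). Kcna4, a potassium channel gene, was nearest to Crabp2 at 0.953 and 0.109 FPKM beside 4.07 and 3.77 (0.08).

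The rest of the pathway was taken from 8 lists of 100 further genes, of which 67 reached the filter. None passed over all genes in limma or in limma-voom on whole reads, and 9 had an unadjusted p under 0.05 in limma, 4 higher and 5 lower, beside the background of 17.1%. Of the 67, 16 lay above and 20 below the wild-type pair, 53.7% together beside 54.2% of all genes. Their median log2 difference was -0.04, and the genes named next are described by their values.

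Of 14 uptake and storage genes, 4 reached a mean of 1 FPKM and 3 were listed at 0 throughout. Lrat, the main retinol esterifying enzyme gene, was among the latter. Stra6, the receptor gene for retinol carried in blood, had 7.74 FPKM in knockout 2, 0.642 in knockout 1, and 1.297 and 0.900 in wild type (adjusted p = 0.636, limma). Lpl, the lipoprotein lipase gene, whose product also frees retinol from circulating esters, stood at 190 and 17.4 FPKM beside 3.33 and 3.56 (log2 3.74, SE 1.20, adjusted p = 0.266, limma).

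Of 14 tested oxidoreductase genes, 7 were lower than the wild-type pair in both other libraries and 1 was higher. Of all genes, 24.8% were lower in this way and 29.4% higher. Both directions together made up 57.1% of the list and 54.2% of all genes. The median log2 difference of the list was -0.27. Retsat, the retinol saturase gene, stood at 29.6 and 28.3 FPKM beside 37.4 and 38.2 (log2 -0.37, SE 0.11, adjusted p = 0.256, limma), with close replicates in both groups. Rdh5 and Rdh14, retinol dehydrogenase genes, stood at 4.56 and 3.85 FPKM beside 6.66 and 5.74, and at 6.00 and 8.12 beside 9.76 and 10.4. Adh7, an alcohol dehydrogenase gene active on retinol, was high in knockout 2 at 64.2 FPKM, beside 22.1, 27.2 and 28.5 in knockout 1 and wild type. The next pair was chosen with its values known. Rdh10, whose product makes most retinaldehyde in the embryo, stood at 9.01 and 4.51 FPKM beside 5.68 and 6.55, and Dhrs3, whose product reduces retinaldehyde back to retinol, at 23.7 and 5.51 beside 17.0 and 16.4.

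The receptor and cofactor genes named here were well expressed and differed between groups by less than 2-fold. Of the 9 tested nuclear receptor genes other than Rarb, 2 not named here were at least 2-fold below both wild-type libraries in knockout 2. On the same log2(FPKM + 1) scale, 724 of all 12344 genes were. Rarg, the main receptor gene here, stood at 116 and 165 FPKM beside 147 and 135, and the groups overlap. Rara stood at 15.2 and 15.8 FPKM beside 21.6 and 20.7 (log2 -0.43, SE 0.12, adjusted p = 0.250, limma), Rxra at 45.6 and 43.8 beside 36.0 and 39.1, and Rora, an orphan receptor gene, at 19.5 and 19.1 beside 12.6 and 13.4 (adjusted p = 0.232, limma). Of 10 tested cofactor genes 7 lay above the wild-type pair and 1 below, where 29.4% of all genes lay above and 24.8% below, with a median log2 difference of 0.30. The coactivator gene Ncoa3 stood at 21.2 and 22.2 FPKM beside 14.8 and 14.4 (log2 0.54, SE 0.12, adjusted p = 0.232, limma), and the corepressor gene Ncor1 at 90.2 and 84.4 beside 78.2 and 83.3.

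Textbook targets of retinoic acid did not share a direction. Beside the members Rarb, Crabp2 and Cyp26b1, 16 further targets were tested, of which 1 was above and 6 below the wild-type pair (median log2 difference -0.22), where 29.4% and 24.8% of all genes were. Tgm2, the tissue transglutaminase gene, stood at 40.9 and 25.8 FPKM beside 86.9 and 80.4 (log2 -1.34, SE 0.25, adjusted p = 0.216, limma). Bhlhe40, which encodes a repressor of the circadian clock, stood at 54.1 and 103 FPKM beside 174 and 158 (log2 -1.14, SE 0.34, adjusted p = 0.253, limma). The 1 further target above the pair was Rai14, chosen with its values known and named for its induction by retinoic acid, at 42.4 and 87.9 FPKM beside 27.7 and 28.3 (log2 1.10, SE 0.38, adjusted p = 0.281, limma). Tgm2 and Bhlhe40 lay below wild type in both libraries, as did Crabp2, whereas Cyp26b1 was high in knockout 2 alone.

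**Figure D4:**
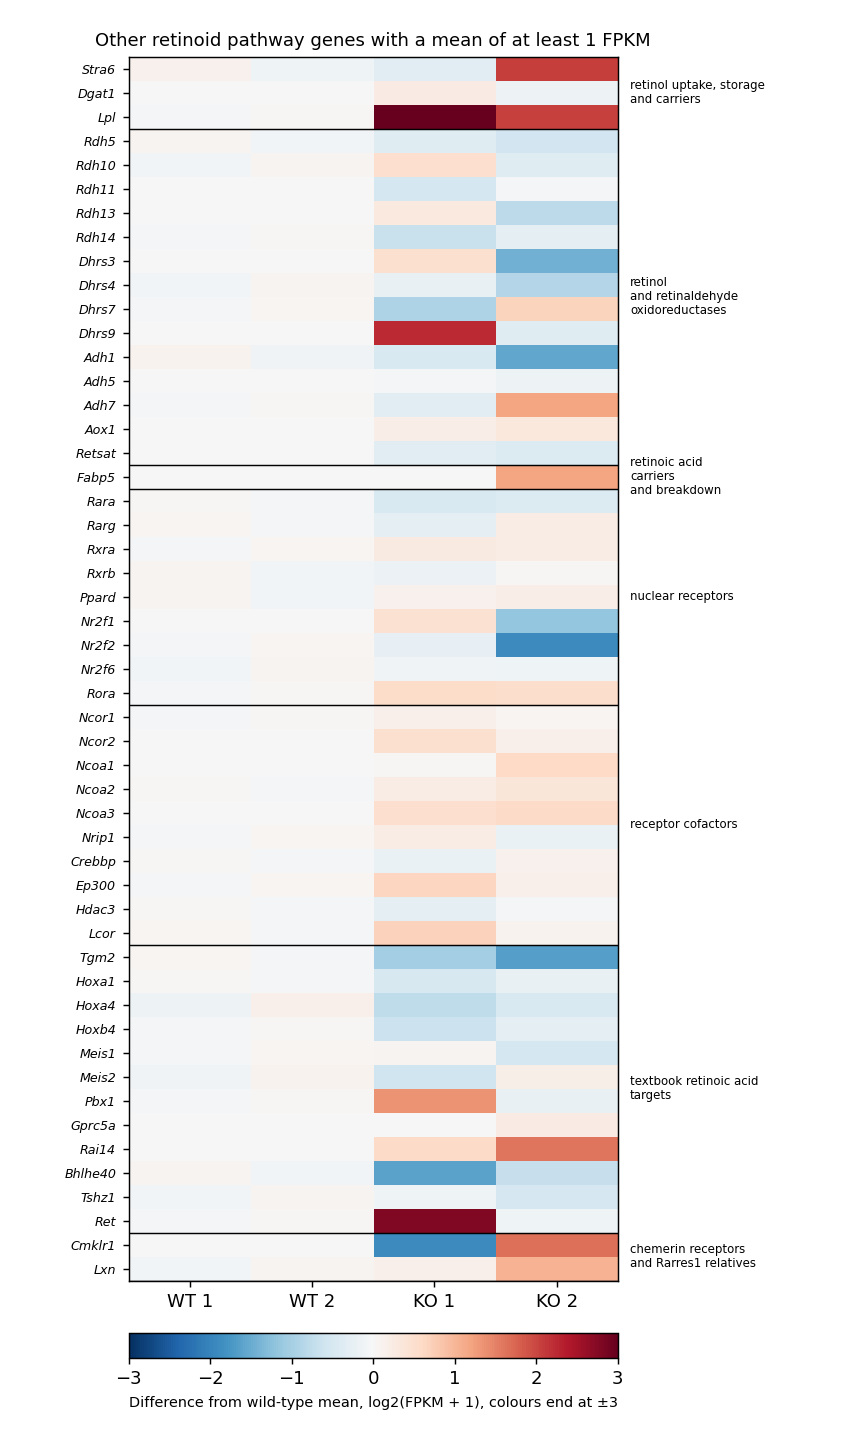
Colour shows the difference from the wild-type mean on the log2(FPKM + 1) scale for 51 of the 52 tested pathway genes outside the wider ALDH family (rows, grouped by list, a gene of several lists shown once) in each library (columns); the colour scale ends at 3 and -3. The wild-type columns are near 0, Stra6, Fabp5 and Adh7 are high in knockout 2 alone, and Tgm2 and Bhlhe40 are low in both knockout-labelled columns.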

How the data were processed

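The authors deposited FPKM per gene for 4 libraries. Bowtie2 2.2.3, TopHat2 2.0.12, HTSeq 0.6.1 and the build mm10 are named in the submitters' processing notes; how gene lengths were set is not given in the sources used here. Names came from GENCODE M21 (GRCm38), for 40456 of 41029 identifiers. FPKM were quotients of whole numbers, so reads were worked out for all 25309 genes above 0 (tolerance 1e-06 of a read, wider for large counts) and found to sum to 97.68% to 97.84% of each total; they are lower bounds where counts share a factor. Intervals cover counting error only.

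The 12344 genes whose mean reached 1 FPKM were tested on log2(FPKM + 1) with limma 3.58.1 (R 4.3.3), two-sided, with a mean-variance trend. P-values were Benjamini-Hochberg adjusted, with a threshold of 0.05, and differences are knockout minus wild type. The fit was tried on simulated data with the same spread in both groups, so that trial does not cover unequal spreads. In these data the median absolute log2 difference between replicates was 0.345 for the knockout-labelled libraries and 0.0818 for wild type. FPKM are relative to each library's total. Members and lists were chosen with earlier results of these data known. In each list the rule names genes past the threshold, the 3 smallest p and the 2 highest means; not all are printed, and 1 item is not reported here.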

Additional observations from a re-analysis of the deposited data

How the results depend on the processing

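None of the 9 retinoid genes and none of the 100 other pathway genes passed under any alternative that kept both knockout-labelled libraries. Without 1 library the counts ran from 0 to 7 for the 9 genes, from 0 to 42 for the other pathway genes and from 0 to 7415 for all genes; the high values, without knockout 1 (7, 39 and 7415) or knockout 2 (5, 42 and 5734), assume that the lone knockout-labelled library varies like wild type, and without either wild-type library all 3 counts were 0. Over all genes the count of 2 became 1 with a pseudocount of 0.1 or 0.01, and 0 in limma-voom on whole reads and with the replicate block. The numbers 1 and 2 are not said to pair samples, and deviations of same-numbered libraries correlated at 0.0061 across genes.

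Genes at least 2-fold higher in every pair numbered 98, and 195, 212 and 62 with a pseudocount of 0.1, of 0.01 and with a mean of at least 5 FPKM; lower genes numbered 139. Without 1 library they ran from 110 to 635 higher and from 152 to 724 lower. Of the retinoid genes 2 were higher and 1 lower in this count. With a pseudocount of 0.1 or 0.01, 3 were higher, Aldh1a2 joining, and with a mean of at least 5 FPKM 1 was. Without 1 library 2 to 4 were higher (4 without knockout 1) and 1 to 2 lower (2 without knockout 2).

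Of 60 log2 differences of the 8 tested retinoid genes under the other alternatives, all 60 kept their sign, and 31 of 32 did without 1 library, the exception being Cyp26b1. Their size depends on the pseudocount: Rarres1 went from 3.13 to 5.19 with a pseudocount of 0.01, and Aldh1a2 from 1.97 to 5.95. Signs turned with quantile normalization for Rarg (0.065) and Rdh10 (-0.0082). Without 1 library they turned for 7 genes: Adh7 ran from -0.32 to 1.18, Fabp5 from -0.022 to 1.18, Stra6 from -0.35 to 2.06, Rdh10 from -0.37 to 0.50, Dhrs3 from -1.44 to 0.48, Cmklr1 from -1.92 to 1.64 and Rarg from -0.28 to 0.23. Depth limits Aldh1a3, Rarres1 and Aldh1a2, whose wild-type levels rest on 12, 10 and 7 reads. The cause of these shifts was not tested.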

Other observations

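The wider aldehyde dehydrogenase family was taken from a list of its own. All 15 listed genes were tested and none passed in limma or in limma-voom on whole reads, with 1 at an unadjusted p under 0.05 in limma; 2 lay above and 3 below both wild-type libraries, 33.3% together beside 54.2% of all genes. Aldh2, the mitochondrial enzyme gene that clears acetaldehyde, stood at 129 and 172 FPKM in knockout 1 and 2 beside 185 and 180 in wild type (adjusted p = 0.470, limma). Aldh3a1, a gene for an enzyme of lipid aldehydes, stood at 6.56 and 10.5 FPKM beside 16.7 and 16.8 (log2 -0.93, SE 0.25, adjusted p = 0.245, limma), and Aldh3b1 at 8.41 and 9.72 beside 6.71 and 6.84 (adjusted p = 0.325, limma).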
